A study of Mus musculus with 30 samples.

Results

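The growth arrest and MYC stress genes described here are 10 genes, Gadd45a, Gadd45b, Gadd45g, Cdkn1a, Btg2, Mdm2, Myc, Ier2, Ier3 and Maff. They were taken by gene symbol from the platform's annotation of an Affymetrix mouse expression array, where 16 of 45037 probe sets carried their symbols, and they are 10 of 18193 genes named on the array. Total RNA of whole lungs from 30 C57BL/6 mice was measured, 1 animal to 1 array. The juveniles were aged 21 days and the adults 16 weeks. At each age there were untreated controls (n = 4 at both ages) and mice given mechanical ventilation, MV (n = 3 juvenile and 4 adult). A further group at each age inhaled LPS (n = 4 at both ages), and the last was given LPS followed at once by ventilation, LPS+MV (n = 3 juvenile and 4 adult). LPS, the bacterial endotoxin lipopolysaccharide of E. coli 0111:B4, was aerosolised in a closed chamber for 30 minutes from 20 mL of a 0.1 mg/mL solution. Ventilation lasted 2 hours, with a tidal volume of 15 mL/kg at 80 breaths/min, 30% inspired oxygen and an end-expiratory pressure of 2 cm H2O. Mice given LPS alone breathed freely for the same 2 hours. The labels name no ventilated group at a low tidal volume and no anaesthetised group without ventilation, so what accompanies ventilation cannot be told apart from ventilation itself.

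The 10 genes belong to the early response of cells to stress. GADD45 proteins, p21 (the product of Cdkn1a) and BTG2 slow the cell cycle after DNA damage and other insults, and many of these genes are targets of the tumour suppressor p53, whose main inhibitor is the ubiquitin ligase MDM2. MYC drives ribosome production and growth, while IER2, IER3 and MAFF are products of genes switched on within minutes to hours by growth factors, cytokines or mechanical stress, IER3 and GADD45B partly through NF-kappaB. In lung, several of them are known to respond to endotoxin and to stretch of the airspaces. In a whole-lung sample more cells of a type and more RNA per cell cannot be told apart.

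Intensities below are the deposited probe set values on a linear scale, in arbitrary units. Changes are differences of group means of log2(intensity + 32) with their standard error (±), p-values are adjusted over the 13089 genes tested in a comparison, and a gene is said to rise or fall where the adjusted p is under 0.05. All 10 genes passed the filter on dim probe sets, each above its array's median on all 30 arrays through the probe set used.

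Several arrays stood apart. The heat shock genes, which respond to heat and protein damage, had a mean log2 value of 12.5 in juvenile MV mouse 3 and 11.6 in juvenile LPS+MV mouse 3, against 9.91 to 10.6 in the other mice of these groups. Each of those 2 arrays also held the highest value of its group for 9 of the 10 genes, and juvenile control mouse 4 did so for 8 of 10. Adult MV mouse 2 held the highest value of its group for 8 of 10. The female transcript Xist was high on 11 arrays and low on 19, and the high ones were spread unevenly, with 0 of 4 adult controls, 4 of 4 adult MV, 0 of 4 adult LPS and 3 of 4 adult LPS+MV. Results were therefore recomputed without such arrays (the 2 high in heat shock genes, and the 4 that deviated most from their groups) and with Xist as a term. The labelled tissue bore its defining markers, with a summed intensity of alveolar type 2 genes of 44980 to 52857 over all arrays. Of 12 neutrophil markers 10 were tested, all but Ly6g and Retnlg. Their summed intensity ran from 1126 to 4268 in juvenile controls, 3481 to 5921 after MV, 7602 to 9257 after LPS and 17145 to 18034 after LPS+MV. In adults it ran from 3039 to 24471 in controls, 2768 to 10510 after MV, 22479 to 36968 after LPS and 19123 to 24816 after LPS+MV. The part of neutrophils in the changes below was not tested.

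**Figure D1:**
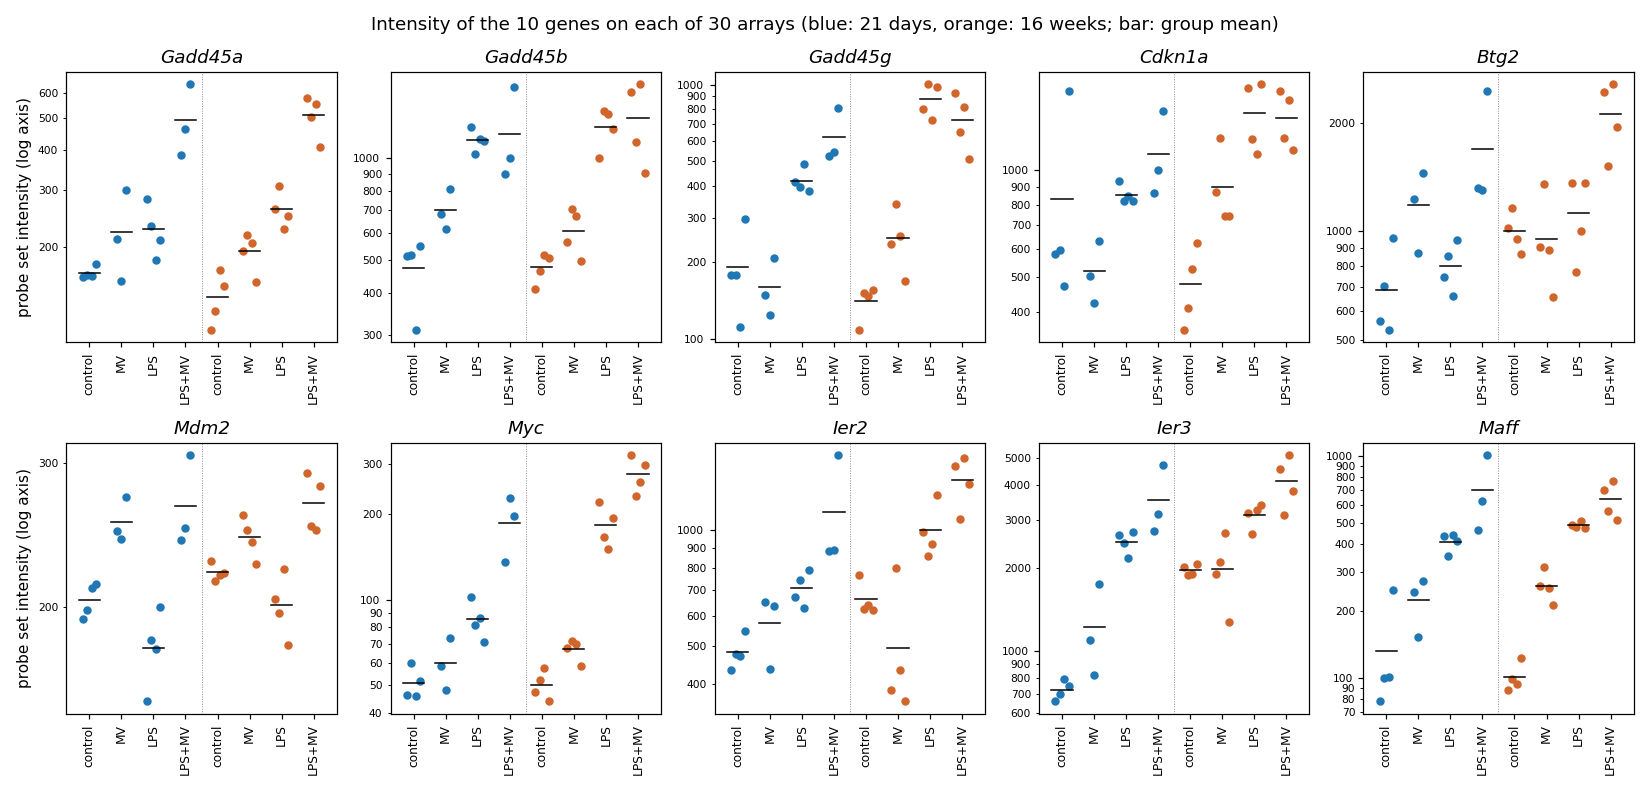
Probe set intensity of each gene (vertical axis, log scale, arbitrary units) on every array, by group along the horizontal axis. Points are mice, blue at 21 days and orange at 16 weeks, and bars are group means. For 9 of the 10 genes the juvenile LPS+MV mouse with the highest value is mouse 3, and Ier3 in adult controls (1896 to 2069) lies above every juvenile control (661 to 795).

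LPS+MV raised nearly the whole set at both ages. In adults all 10 genes were higher than in controls, where 14.8% of all genes tested were higher and 27.3% lower. The median change of the 10 was 1.44 against -0.05 over all genes. In juveniles 9 of 10 rose, all but Cdkn1a, where 10.8% of all genes were higher and 20.5% lower, and the median was 1.31 against -0.05. None of the 10 was called lower in any treatment against its control.

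LPS alone raised 8 of 10 in adults (background 12.9% higher and 23.0% lower) and 6 of 10 in juveniles (9.58% higher and 13.3% lower). The median change of the 10 was 1.05 in adults and 0.51 in juveniles, against -0.04 and -0.03 over all genes. Btg2 and Mdm2 did not pass with LPS at either age. MV alone raised 4 of 10 at each age. In juveniles these were Btg2, Mdm2, Ier3 and Maff (background 4.41% higher and 6.45% lower), and in adults Gadd45a, Gadd45g, Cdkn1a and Maff (7.17% higher and 24.3% lower). All 4 juvenile MV calls were lost without juvenile MV mouse 1 or 3, or without juvenile control 1 or 2. Without adult MV mouse 2, Gadd45a, Gadd45g and Cdkn1a no longer passed, and Ier2 passed as lower than in controls. With Xist as a term 1 adult call was left, that of Maff, and the changes were 0.76 for Cdkn1a, 0.53 for Gadd45g and 0.05 for Gadd45a, from 0.86, 0.68 and 0.40 without it. Xist was high on 4 of 4 adult MV mice and 0 of 4 adult controls, so it cannot be told apart from MV in this comparison. The term was estimated from the groups that held both high and low arrays, namely juvenile controls, juvenile MV, juvenile LPS+MV and adult LPS+MV. Xist was high on juvenile MV mouse 3 (567) and juvenile LPS+MV mouse 3 (771), the arrays high in heat shock genes. Mouse 3 was the only high one in juvenile MV. Results with the Xist term are thus not independent of what set those arrays apart.

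**Figure D2:**
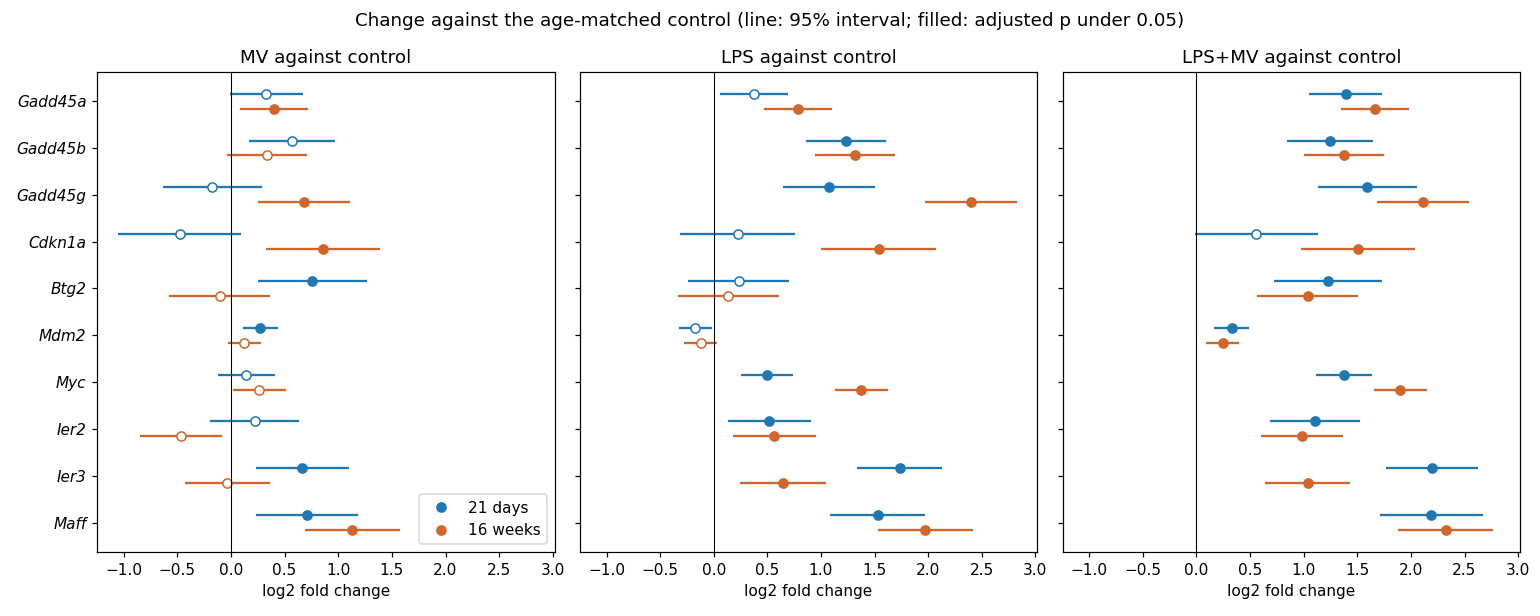
Log2 fold change of each gene against the control of the same age for MV, LPS and LPS+MV, blue for 21 days and orange for 16 weeks. Points are estimates, lines their 95% intervals, and filled points have an adjusted p under 0.05. With LPS+MV every point but that of juvenile Cdkn1a is filled, and with MV 4 are filled at each age.

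Comparisons between treatments separated the genes. Against LPS, LPS+MV was higher for 5 of 10 in juveniles (Gadd45a, Btg2, Mdm2, Myc and Ier2, background 5.97% higher and 9.45% lower) and 4 of 10 in adults (Gadd45a, Btg2, Mdm2 and Myc, background 3.69% higher and 3.35% lower). The juvenile count was 3 without juvenile LPS+MV mouse 3, which left Gadd45a, Mdm2 and Myc. With Xist as a term only Gadd45a passed in adults. Against MV, LPS+MV was higher for 8 of 10 at each age, all but Btg2 and Mdm2 in juveniles (6.93% higher and 7.78% lower) and all but Cdkn1a and Mdm2 in adults (12.0% higher and 5.34% lower). The juvenile count was 5 without juvenile MV mouse 2 or without juvenile LPS+MV mouse 3. LPS alone against MV alone gave 5 higher and 1 lower in juveniles (12.6% higher and 13.7% lower) and 6 higher and 1 lower in adults (15.9% higher and 8.60% lower), and the lower gene was Mdm2 both times. The juvenile total of 6 was 3 without juvenile MV mouse 2. Xist was high on 4 of 4 adult MV mice and 0 of 4 adult LPS mice. It thus cannot be told apart from treatment when adult LPS is set against adult MV. These comparisons share groups, so their counts are not independent of each other.

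A departure from the sum of both treatments, on the log2 scale, was called for few of the genes. It passed for 0 of 10 in juveniles (0.749% of all genes, either direction) and 2 of 10 in adults (7.16%), which were Gadd45g and Ier2. The juvenile adjusted p nearest the threshold was that of Myc, 0.051. The response to MV differed with age for Cdkn1a (background 6.13%), the response to LPS for Gadd45g, Cdkn1a, Myc and Ier3 (3.69%), and the response to LPS+MV for Ier3 (2.10%). Between the untreated ages 1 of 10 differed, Ier3, higher in adults (background 15.1% higher and 10.1% lower). Btg2 also passed without juvenile control 4 (adjusted p = 0.025, higher in adults) and Cdkn1a without juvenile control 3 (adjusted p = 0.032, lower in adults). Ier2, higher in adult controls (622 to 766) than in every juvenile control (435 to 549), did not pass in the main fit. It passed in a fit on the groups compared alone (adjusted p = 0.0094) and without the 4 arrays (0.035). After quantile normalization the share of calls that were higher moved by more than 10 percentage points in 5 comparisons. It went from 22.8% to 41.5% for adult MV against control, from 69.2% to 42.8% for adult LPS+MV against MV, and from 64.9% to 50% for adult LPS against MV. In the adult interaction of LPS and MV it went from 76.8% to 46.8%, and in that of age and MV from 21.2% to 46.3%. All 5 include the adult MV group. There mouse 3 had an upper quartile of intensity of 89.1, against 98.8 to 111.4 on the other arrays. The part of that array in these shifts was not tested. No call of the 10 genes turned direction with quantile normalization, and the 1 call lost was the adult interaction of Ier2.

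**Figure D3:**
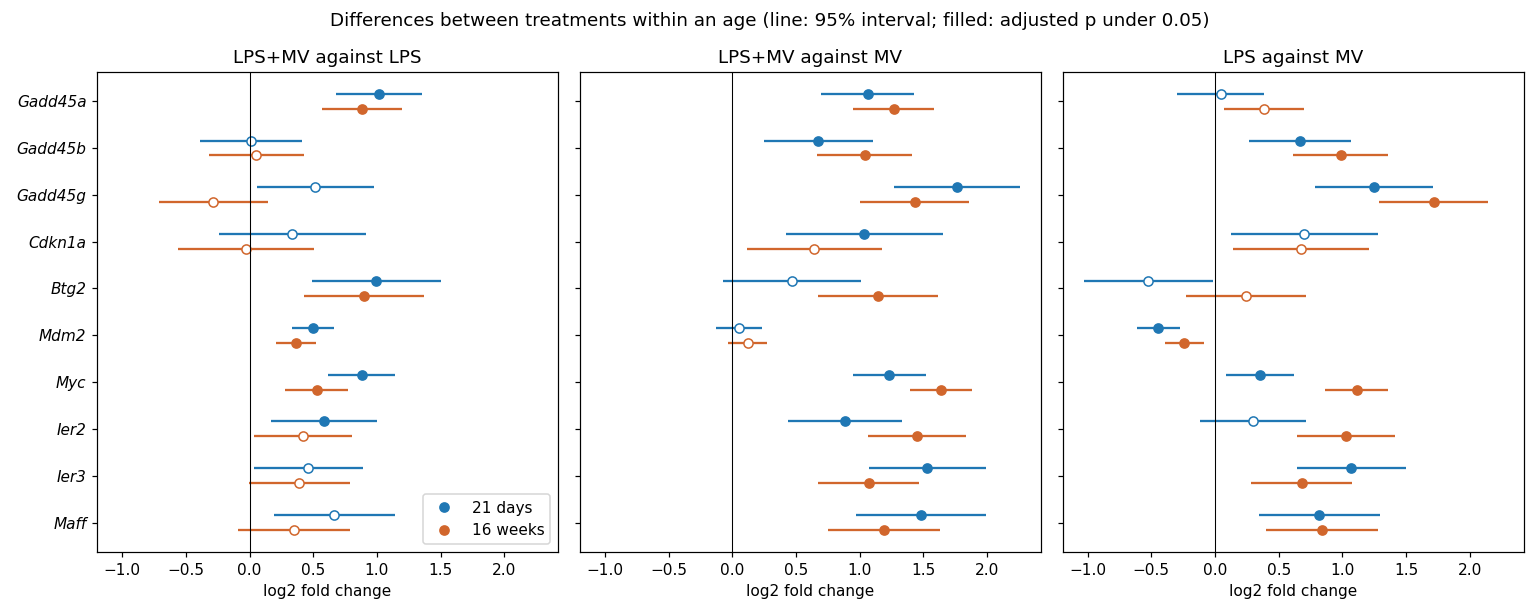
Log2 fold change of each gene between treatments of the same age, blue for 21 days and orange for 16 weeks, with 95% intervals as lines and filled points where the adjusted p is under 0.05. For Gadd45b, LPS+MV against LPS lies at 0.01 and 0.05, whereas for Gadd45a it lies at 1.02 and 0.88.

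The GADD45 genes encode small stress sensors that bind p21, PCNA and the kinase MAP3K4. Gadd45a, the member most tied to p53, rose with LPS+MV at both ages and was higher there than after either treatment alone. Its intensity in juveniles was 161, 163, 162 and 176 in controls, 212, 157 and 299 with MV, 281, 232, 182 and 210.4 with LPS and 387, 463 and 639 with LPS+MV. All 3 LPS+MV mice lay above all 11 others, while the MV mice overlapped both the controls and the LPS mice. In adults the values were 110.5, 127, 169.5 and 151 in controls, 194, 218, 206 and 156 with MV, 263, 309.7, 227 and 249 with LPS and 579, 504, 553 and 409 with LPS+MV. The LPS+MV mice again lay above all others, and the LPS mice lay above all MV mice. Against control LPS+MV gave 1.39 ± 0.17 in juveniles (adjusted p = 3.1e-07) and 1.67 ± 0.15 in adults (adjusted p = 1.9e-09). Against LPS alone it was higher by 1.02 ± 0.17 in juveniles (adjusted p = 1.5e-04) and 0.88 ± 0.15 in adults (adjusted p = 8.4e-04), and these calls held in every alternative. LPS alone gave 0.78 ± 0.15 in adults (adjusted p = 2.4e-04) and 0.37 ± 0.15 in juveniles, which did not pass (adjusted p = 0.080). The latter passed without the 2 arrays high in heat shock genes (adjusted p = 0.031). The adult MV change, 0.40 ± 0.15 (adjusted p = 0.048), was lost when any of 6 arrays was left out (controls 1, 2 and 4 and MV mice 1, 2 and 3, adjusted p up to 0.15). With Xist as a term it was 0.05 (adjusted p = 0.89). The adult excess of LPS over MV, 0.38 ± 0.15, did not pass (adjusted p = 0.070), but did with Xist as a term (0.73, adjusted p = 0.0043), without the 2 arrays (0.025) and without the 4 (0.028). Xist was high on every adult MV mouse and on no adult LPS mouse, so it cannot be told apart from treatment there.

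Gadd45b, an NF-kappaB target that restrains JNK signalling, rose with LPS and with LPS+MV at both ages, and LPS+MV was not called against LPS. Juvenile intensities were 515, 515, 310.2 and 548 in controls, 683, 619 and 809 with MV, 1232, 1029, 1139 and 1120.3 with LPS and 896, 1003 and 1628 with LPS+MV. Adult values were 411, 463, 518 and 507 in controls, 564, 705, 672 and 497 with MV, 1002, 1378, 1350.0 and 1218 with LPS and 1571, 1119.8, 1655 and 905 with LPS+MV. At both ages the LPS and LPS+MV mice overlapped each other and lay above every control and every MV mouse. LPS gave 1.23 ± 0.18 in juveniles (adjusted p = 7.8e-06) and 1.32 ± 0.18 in adults (adjusted p = 2.2e-06). LPS+MV against LPS was 0.01 ± 0.20 in juveniles, with a 95% interval of -0.39 to 0.41, and 0.05 ± 0.18 in adults, with an interval of -0.32 to 0.43. MV alone did not pass at either age, although all 3 juvenile MV mice lay above all 4 controls (0.57 ± 0.20, adjusted p = 0.061, and 0.043 without juvenile control 4). The juvenile excess of LPS+MV over MV (adjusted p = 0.028) was lost without juvenile LPS+MV mouse 3 (0.22), MV mouse 1 (0.081), MV mouse 2 (0.12) or with Xist as a term (0.058). That of LPS over MV (adjusted p = 0.012) was lost without MV mouse 2 (0.066).

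Gadd45g, first known as a cytokine-responsive gene, showed the strongest rise of the set with LPS in adults. Adult intensities were 108, 151, 148 and 155 in controls, 236, 340.4, 253 and 169.8 with MV, 806, 1006, 728 and 979 with LPS and 928, 653, 821 and 509.6 with LPS+MV. The LPS and LPS+MV mice overlapped, and every MV mouse lay between the controls and the LPS mice. Juvenile values were 179, 179, 111 and 296 in controls, 149, 125 and 208 with MV, 416, 398, 486 and 380.4 with LPS and 522, 543 and 809 with LPS+MV. Here the control and MV mice overlapped and lay below all LPS mice. LPS gave 2.40 ± 0.21 in adults (adjusted p = 8.0e-10) and 1.07 ± 0.21 in juveniles (adjusted p = 3.0e-04), and the response was larger in adults by 1.32 ± 0.29 (adjusted p = 0.0087). LPS+MV raised it by 1.59 ± 0.22 in juveniles (adjusted p = 4.2e-06) and 2.11 ± 0.21 in adults (adjusted p = 6.0e-09). MV raised it in adults, by 0.68 ± 0.21 (adjusted p = 0.014), a call lost without adult MV mouse 2 (adjusted p = 0.063) and with Xist as a term (0.53, adjusted p = 0.21). The adult LPS+MV level was below the sum of both treatments by an interaction of -0.97 ± 0.29 (adjusted p = 0.045), which did not pass when any 1 of 11 of the 16 adult arrays was left out (adjusted p up to 0.10, without adult LPS+MV mouse 4), with the replicate number as a block (0.052) or with Xist as a term (0.062).

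Promoter sequence was searched for every member that could be matched. Of the 10 genes, 8 were matched in RefSeq's promoter table (GRCm38.p6), with 11 start sites among them. Myc and Ier2 were not matched. The 250 bases before each start were searched on both strands for 7 motifs, and no 2 matches overlapped. A member counts as matched by a motif if any of its start sites had it, whereas shares of all promoters count each start site. Windows holding the half-site of p53 are shown for the 3 members that had one, read 5′ to 3′ on the gene's strand with 20 bases on either side, the motif in capitals:
Gadd45a: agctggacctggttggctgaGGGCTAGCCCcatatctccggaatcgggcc
Cdkn1a: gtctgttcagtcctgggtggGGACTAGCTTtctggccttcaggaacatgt
Cdkn1a: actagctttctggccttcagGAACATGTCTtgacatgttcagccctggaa
Mdm2: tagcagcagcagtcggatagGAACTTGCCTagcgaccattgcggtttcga
The Gadd45a window, chr6:67037418-67037467 on the minus strand, starts its motif 40 bases before the start site. In Cdkn1a the motifs start 73 and 51 bases before start site 1 of 2, in chr17:29090886-29090935 on the plus strand and chr17:29090908-29090957 on the plus strand, and these windows overlap. Start site 2 of Cdkn1a had no p53 half-site in its window. The Mdm2 motif starts 186 bases before its start site, in chr10:117710915-117710964 on the minus strand. A p53 half-site was found in 7.13% of 32851 promoters of the same length, so a match is only a description, and Gadd45b, Gadd45g and Btg2 had none in this window. The E-box CACGTG, a motif bound by MYC among others, was found in Gadd45b, Gadd45g and Maff and in 6.02% of all promoters. CArG boxes (1.47% of all promoters), the AP-1 motif TGANTCA (6.75%) and the heat shock element GAANNTTC (6.69%) were found in no member. No peak or binding measurement accompanies these arrays.

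Cdkn1a, which encodes the cyclin-dependent kinase inhibitor p21, rose in adults and did not pass against control in juveniles. Adult intensities were 355, 409, 526 and 625 in controls, 866, 1231, 742 and 742 with MV, 1703, 1228, 1108 and 1747 with LPS and 1673, 1233, 1578 and 1139 with LPS+MV. Every treated adult lay above every control. Juvenile values were 582, 597, 471 and 1672 in controls, 505, 422 and 630.2 with MV, 930.3, 819, 845 and 821 with LPS and 862, 1004 and 1470.0 with LPS+MV. Juvenile control 4 exceeded every other juvenile, and the other 3 controls lay below all LPS and LPS+MV mice. In adults MV gave 0.86 ± 0.26 (adjusted p = 0.013), LPS 1.54 ± 0.26 (adjusted p = 4.1e-05) and LPS+MV 1.51 ± 0.26 (adjusted p = 3.7e-05). In juveniles MV gave -0.48 ± 0.28, LPS 0.22 ± 0.26 and LPS+MV 0.56 ± 0.28 (adjusted p = 0.14). Without juvenile control 4 the juvenile changes were 0.61 with LPS (adjusted p = 0.029) and 0.95 with LPS+MV (adjusted p = 0.0013), so whether either change was called depended on that mouse.

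The response of Cdkn1a was larger in adults by 1.34 ± 0.38 for MV (adjusted p = 0.035) and 1.31 ± 0.37 for LPS (adjusted p = 0.041). Without juvenile control 4 these were 0.95 (adjusted p = 0.034) and 0.93 (adjusted p = 0.042). The MV term was lost without adult control 1 or 2, adult MV mouse 2 or juvenile MV mouse 1 or 2 (adjusted p up to 0.11), and the LPS term without adult control 1, 2 or 3, adult LPS mouse 1 or 4 or any juvenile LPS mouse (up to 0.090). Juvenile LPS+MV mice exceeded MV mice, by 1.04 ± 0.30 (adjusted p = 0.018), but not without LPS+MV mouse 3 (0.11) or MV mouse 1 or 2 (up to 0.093). The adult MV call was lost without adult MV mouse 2 (0.055) and with Xist as a term (0.76, adjusted p = 0.15). With that term the age differences were 1.25 for MV (adjusted p = 0.14) and 1.29 for LPS (adjusted p = 0.053).

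Mdm2, whose product marks p53 for degradation, had small changes and little spread between mice. Juvenile intensities were 194, 199, 211 and 214 in controls, 248, 242 and 272 with MV, 154, 182, 178 and 200.2 with LPS and 241, 249.9 and 306 with LPS+MV. Adult values were 228, 216, 219 and 221 in controls, 259, 248, 241 and 226 with MV, 205, 197, 223 and 180.1 with LPS and 292, 251, 248 and 281 with LPS+MV. At both ages the order of the group means was LPS, control, MV and LPS+MV from low to high, and the LPS mice lay below all MV mice and all LPS+MV mice. MV and LPS+MV mice overlapped at both ages, and control and LPS mice overlapped at both ages. LPS+MV exceeded LPS by 0.50 ± 0.08 in juveniles (adjusted p = 1.4e-04) and 0.36 ± 0.08 in adults (adjusted p = 0.0034), and control by 0.33 ± 0.08 (adjusted p = 0.0028) and 0.24 ± 0.08 (adjusted p = 0.010). LPS minus MV was -0.44 ± 0.08 in juveniles (adjusted p = 1.4e-04) and -0.24 ± 0.08 in adults (adjusted p = 0.018). The adult calls were lost with Xist as a term, where the change was 0.31 against LPS (adjusted p = 0.063), 0.19 against control (adjusted p = 0.097) and -0.18 for LPS against MV (adjusted p = 0.27). The last was also lost without adult MV mouse 1 (0.059) or LPS mouse 4 (0.077). Juvenile MV mice lay above all controls (0.27 ± 0.08, adjusted p = 0.029, and 0.14 without MV mouse 3). A second Mdm2 probe set made the same call in 17 of 18 comparisons, and another was dim on every array (8.59 to 13.1) and was not tested.

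Btg2, an antiproliferative gene of the BTG/TOB family that promotes mRNA deadenylation, rose with LPS+MV at both ages and was not called with LPS. Juvenile intensities were 562, 704, 533 and 959 in controls, 1228, 870.1 and 1449 with MV, 746, 853, 660.5 and 948 with LPS and 1315, 1299 and 2457 with LPS+MV. Adult values were 1021, 1157, 951 and 868 in controls, 907, 1354, 889 and 656 with MV, 1358, 772, 1003 and 1366 with LPS and 2435, 1516, 2560.0 and 1949.7 with LPS+MV. All LPS+MV mice lay above all LPS mice and all controls of their age, and adult control, MV and LPS mice overlapped. LPS+MV gave 1.23 ± 0.25 in juveniles (adjusted p = 3.8e-04) and 1.04 ± 0.23 in adults (adjusted p = 6.2e-04). LPS alone gave 0.23 ± 0.23, with a 95% interval of -0.24 to 0.70, and 0.14 ± 0.23, with an interval of -0.33 to 0.61. LPS+MV against LPS was 0.99 ± 0.25 in juveniles (adjusted p = 0.0070) and 0.90 ± 0.23 in adults (adjusted p = 0.015). The juvenile call was lost without juvenile LPS+MV mouse 3 (0.087), and the adult one without adult LPS mouse 2 (0.076), without LPS+MV mouse 3 (0.061) or with Xist as a term (0.80, adjusted p = 0.13). Juvenile MV gave 0.76 ± 0.25 (adjusted p = 0.047), with MV mouse 2 within the control range, and adult MV -0.11 ± 0.23. The juvenile MV call was lost with the mean over probe sets (0.55, adjusted p = 0.12) and without the filter (0.061). It was also lost with the replicate number as a block (0.055), with Xist as a term (0.054) and on the groups compared alone (0.11). The difference in the MV response between ages was not called (adjusted p = 0.12), but was without juvenile control 4 (0.049). The adult interaction of LPS and MV, 1.01 ± 0.32, did not pass (adjusted p = 0.056), but did without the 2 arrays (0.032) and without the 4 (0.0095).

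The Btg2 promoter held the cAMP response element TGACGTCA, as did that of Maff, and 1.55% of all promoters had it. These windows are shown because these are the genes with this motif among the 8 matched:
Btg2: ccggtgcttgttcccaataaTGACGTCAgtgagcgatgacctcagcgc
Maff: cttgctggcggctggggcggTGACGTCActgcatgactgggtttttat
They are chr1:134079294-134079341 on the minus strand and chr15:79347471-79347518 on the plus strand, the latter at start site 2 of the 3 of Maff.

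Myc, the transcription factor of growth and ribosome production, rose with LPS and further with LPS+MV at both ages. Juvenile intensities were 46.3, 60.0, 46.0 and 52.0 in controls, 58.4, 48.2 and 73.5 with MV, 102, 81.5, 86.5 and 71.1 with LPS and 135, 227 and 197 with LPS+MV. Adult values were 47.5, 52.2, 57.6 and 44.0 in controls, 67.6, 71.4, 70.0 and 58.4 with MV, 219.9, 166, 151 and 194 with LPS and 321, 231, 260.0 and 296 with LPS+MV. At both ages all LPS+MV mice lay above all LPS mice, and all LPS mice above all controls. MV mice overlapped controls in juveniles, while all 4 lay above all controls in adults. LPS gave 0.50 ± 0.12 in juveniles (adjusted p = 0.0030) and 1.38 ± 0.12 in adults (adjusted p = 8.2e-10), a difference between ages of 0.88 ± 0.17 (adjusted p = 0.0030) that held in every alternative. LPS+MV gave 1.38 ± 0.13 in juveniles (adjusted p = 3.4e-09) and 1.90 ± 0.12 in adults (adjusted p = 8.1e-13). The step from LPS to LPS+MV was 0.88 ± 0.13 in juveniles (adjusted p = 4.4e-05) and 0.53 ± 0.12 in adults (adjusted p = 0.0070), the latter not called with Xist as a term (0.42, adjusted p = 0.11). Adult MV, 0.26 ± 0.12, did not pass (adjusted p = 0.093), but did after quantile normalization (0.033) and with a pseudocount of 1 (0.045). The juvenile interaction, 0.74 ± 0.18, passed without juvenile LPS+MV mouse 1 (adjusted p = 0.0063), LPS mouse 1 or MV mouse 3. The juvenile difference of LPS and MV (0.35 ± 0.13, adjusted p = 0.043) was lost without LPS mouse 1, 2 or 3 or MV mouse 1 or 2 (up to 0.22).

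Ier2, a short-lived immediate early nuclear protein, rose with LPS+MV at both ages. Its juvenile intensities were 435, 478, 471 and 549 in controls, 651, 437 and 638 with MV, 669.6, 742, 629 and 788 with LPS and 886, 888 and 1568 with LPS+MV. In adults they were 766, 626, 639 and 622 in controls, 385, 797, 434 and 359.9 with MV, 989, 860.4, 919.8 and 1237 with LPS and 1469, 1069, 1543 and 1324 with LPS+MV. Of the 4 adult MV mice, 3 lay below every adult control and 1, mouse 2, above them. LPS+MV gave 1.11 ± 0.20 in juveniles (adjusted p = 1.4e-04) and 0.98 ± 0.19 in adults (adjusted p = 1.2e-04). Adult MV gave -0.47 ± 0.19 (adjusted p = 0.059), and without MV mouse 2 -0.71 (adjusted p = 0.0022). Adult LPS gave 0.56 ± 0.19 (adjusted p = 0.020, and 0.077 without LPS mouse 4), and LPS+MV exceeded the sum of both treatments by 0.89 ± 0.27 (adjusted p = 0.041). That interaction did not pass when any 1 of 13 of the 16 adult arrays was left out (up to 0.087, without LPS mouse 2). It also did not pass after quantile normalization (0.82, adjusted p = 0.056) or without the filter (0.051). Juvenile LPS gave 0.52 ± 0.19 (adjusted p = 0.045), lost when any LPS mouse or control 1, 2 or 3 was left out (up to 0.12). The juvenile excess of LPS+MV over LPS was 0.59 ± 0.20 (adjusted p = 0.049), lost without any LPS mouse or LPS+MV mouse 3 (up to 0.36). The excess over MV (adjusted p = 0.0051) was lost without LPS+MV mouse 3 (0.066) or MV mouse 2 (0.053).

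Ier3, also called IEX-1, encodes a regulator of apoptosis and NF-kappaB signalling and was the one gene whose untreated level was called different between ages in the main fit. Control intensities were 661, 705, 795 and 750.5 at 21 days and 2019, 1896, 1913 and 2069 at 16 weeks, with no overlap (1.40 ± 0.19, adjusted p = 6.4e-06). The other juvenile values were 1103, 824 and 1758 with MV, 2650.2, 2478, 2174 and 2701 with LPS and 2737, 3135 and 4750.4 with LPS+MV. In treated adults they were 1907, 2103, 2683 and 1276 with MV, 3179, 2662, 3239.7 and 3394 with LPS and 4567, 3119.8, 5127 and 3799 with LPS+MV. Juvenile LPS mice thus reached 2174 to 2701 and lay above every adult control. LPS gave 1.74 ± 0.19 in juveniles (adjusted p = 8.2e-08) and 0.65 ± 0.19 in adults (adjusted p = 0.010), and the response was smaller in adults, by an interaction of -1.09 ± 0.27 (adjusted p = 0.022). LPS+MV gave 2.20 ± 0.21 in juveniles (adjusted p = 4.7e-09) and 1.04 ± 0.19 in adults (adjusted p = 9.9e-05), with an interaction of -1.16 ± 0.29 (adjusted p = 0.030). The last was lost without juvenile LPS+MV mouse 3 (0.10), and also without juvenile control 1 or 2, adult control 3 or 4 or adult LPS+MV mouse 2 (up to 0.071). Juvenile MV gave 0.67 ± 0.21 (adjusted p = 0.039) and 0.38 without MV mouse 3 (adjusted p = 0.32), while adult MV gave -0.03 ± 0.19. LPS+MV against LPS did not pass at either age, but did in adults without the 4 arrays (0.52, adjusted p = 0.039). The adult excess of LPS over MV (0.68 ± 0.19, adjusted p = 0.010) was lost without adult MV mouse 4 (0.068).

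Maff, a small MAF protein that pairs with NFE2L2 and with the BACH repressors, was the one gene called with all 3 treatments at both ages. Juvenile intensities were 78.5, 100.3, 101 and 249 in controls, 245, 154 and 272 with MV, 438, 353, 438 and 412 with LPS and 466, 627 and 1006 with LPS+MV. Adult values were 88.3, 98.8, 94.0 and 123 in controls, 259, 315, 254 and 213 with MV, 490.2, 478, 511 and 472 with LPS and 702, 564, 774 and 513 with LPS+MV. In adults no 2 of the 4 groups overlapped, and the order was control, MV, LPS and LPS+MV. The step from LPS to LPS+MV was not called there (0.35 ± 0.21, adjusted p = 0.34). In juveniles control 4 lay within the MV range and the order of the means was the same. MV gave 1.13 ± 0.21 in adults (adjusted p = 2.9e-04), the one adult MV call of the set kept in every alternative, and 0.71 ± 0.23 in juveniles (adjusted p = 0.048), lost without control 1, 2 or 3 or MV mouse 1 or 3 (up to 0.21). Xist was high on every adult MV mouse and on no adult control, so no alternative could tell MV apart from it there. LPS gave 1.53 ± 0.21 in juveniles (adjusted p = 4.1e-06) and 1.97 ± 0.21 in adults (adjusted p = 5.0e-08). LPS+MV gave 2.19 ± 0.23 (adjusted p = 3.5e-08) and 2.32 ± 0.21 (adjusted p = 1.9e-09). The juvenile excess of LPS over MV (0.82 ± 0.23, adjusted p = 0.0093) was lost without MV mouse 2 (0.093), and that of LPS+MV over LPS (0.66 ± 0.23, adjusted p = 0.051) passed without LPS+MV mouse 1 (0.016).

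Ier3 and Maff were the 2 of the 8 matched members with a kappaB motif, the NF-kappaB element, in the 250 bases searched. Gadd45b and Gadd45g, which like them rose with LPS at both ages, had no match in this window. The motifs lie on the opposite strand, and the windows are printed on the gene's strand:
Ier3: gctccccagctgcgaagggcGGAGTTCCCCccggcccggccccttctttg
Maff: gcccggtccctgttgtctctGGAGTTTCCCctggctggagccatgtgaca
The Ier3 window is chr17:35821601-35821650 on the plus strand, its motif starting 92 bases before the start, and the Maff window is chr15:79348312-79348361 on the plus strand, 70 bases before start site 3. A kappaB motif was found in 3.90% of all promoters.

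Genes around these members did not move as 1 block. The lists of this section were drawn up by function, with earlier results of these data known, so their counts are only a description. With LPS+MV 10.8% of all genes were higher and 20.5% lower in juveniles, and 14.8% higher and 27.3% lower in adults. Falls among the adult p53 genes and the adult partners of GADD45 and p21 were near that last share. Of 18 p53 pathway and target genes tested (22 listed), 5 rose and 6 fell with juvenile LPS+MV and 5 rose and 6 fell with adult LPS+MV, with list medians of -0.13 and 0.02 against -0.05 over all genes at both ages. Fas, a death receptor, rose by 1.37 ± 0.11 in juveniles and 1.78 ± 0.10 in adults. Pmaip1 and Plk2, an apoptosis inducer and a kinase, rose by 0.82 ± 0.16 and 0.95 ± 0.19 in juveniles. In adults Aen, a nuclease, rose by 0.49 ± 0.08 and Dram1, an autophagy regulator, fell (-0.33 ± 0.06). Trp53 itself was among the genes not tested.

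Of 22 MYC network and target genes, all tested, 6 rose and 3 fell with juvenile LPS+MV and 10 rose and 3 fell with adult LPS+MV. Nop58 and Rrs1, both needed for ribosome assembly, rose by 1.03 ± 0.14 and 0.83 ± 0.11 in juveniles and by 1.70 ± 0.13 and 1.19 ± 0.10 in adults. Odc1, the first enzyme of polyamine synthesis, rose by 0.87 ± 0.12 in juveniles, and Mxd1, a MAX partner that opposes MYC, by 1.64 ± 0.21 in adults. The list medians were 0.08 and 0.14, against -0.05 over all genes at both ages. With a fit on the groups compared alone, the 9 juvenile calls were 5.

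Other brakes of the cell cycle were divided. Of 8 CDK inhibitors and BTG/TOB genes tested (11 listed), 2 rose and 4 fell in juveniles and 2 rose and 5 fell in adults with LPS+MV, with list medians of -0.32 and -0.39. Btg1, the closest relative of Btg2, rose by 1.39 ± 0.08 and 0.98 ± 0.08, while Cdkn2c, the inhibitor p18, fell at both ages (-1.01 ± 0.17 and -0.99 ± 0.16). Tob1 fell in juveniles (-0.55 ± 0.12) and Cdkn2b in adults (-0.78 ± 0.11). Partners of GADD45 and p21, with 9 tested of 11, gave 0 higher and 6 lower in juveniles and 1 higher and 3 lower in adults, with medians of -0.36 and -0.15. Cdk4 (-0.50 ± 0.09 and -0.37 ± 0.08) and Mapk14, the kinase p38 alpha (-0.48 ± 0.12 and -0.66 ± 0.11), fell at both ages. Pcna fell in juveniles (-0.42 ± 0.12), and Ccne1 rose in adults (0.21 ± 0.06). The 6 juvenile partner calls were 2 without juvenile control 1 and 2 without juvenile LPS+MV mouse 3, and the 6 juvenile calls of the CDK inhibitor and BTG/TOB list were 3 without the 4 arrays that deviated most from their groups. Summed proliferation markers ran from 644 to 3272 in juvenile controls and from 379 to 905 after juvenile LPS+MV, and their part in these falls was not tested.

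Relatives of MAFF and the IER genes and the AP-1 and EGR genes mostly rose. Of 9 MAF and IER relatives tested (10 listed), 5 rose and 1 fell with LPS+MV at each age, with medians of 0.57 in juveniles and 0.36 in adults. Nfe2l2, which encodes the antioxidant regulator NRF2, rose by 1.27 ± 0.12 in juveniles and 1.26 ± 0.12 in adults. Bach1, which encodes a BACH repressor, rose by 0.98 ± 0.11 and 0.76 ± 0.10. Ier5 rose in juveniles (1.10 ± 0.20), and Maf, a large MAF factor, fell in adults (-0.79 ± 0.13). Of 10 AP-1 and EGR genes tested (11 listed), 8 rose and 0 fell in juveniles and 7 rose and 0 fell in adults, with medians of 2.04 and 1.80. The 3 with the smallest p, Junb, Fosl2 and Egr2, rose by 3.39 ± 0.28, 2.61 ± 0.21 and 1.46 ± 0.16 in juveniles and by 2.36 ± 0.26, 2.44 ± 0.19 and 1.86 ± 0.15 in adults.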

How the data were processed

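Probe set intensity on a linear scale was used as deposited by the authors, for 30 samples on Affymetrix arrays. MAS5 is the tool named in the submitters' processing notes, with no version, and the values ran from 4.5 to 25073. Array medians of 21.6 to 22.8 show that arrays were scaled to each other, by a method not given in the sources used here, and few values are as low as MAS5 usually gives, so which algorithm made them is not settled. Probe sets brighter than the median of the array on 3 or more arrays were kept (24825 of 45037), values were taken as log2(intensity + 32), and each gene was represented by its brightest probe set with 1 symbol (13089 genes tested). The background of the arrays and the pseudocount shrink fold changes of dim genes. The test was limma 3.58.1 under R 4.3.3, using lmFit and eBayes with trend, with 22 residual degrees of freedom and 1 mean for each of the 8 groups, in 18 comparisons with Benjamini-Hochberg adjustment within each and a two-sided threshold of 0.05. The fit was tested on simulated data. Groups were taken from the labels, which name neither litter nor batch, and precision is limited by 3 or 4 mice to a group.

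All 10 members were named, with up to 3 genes that passed of each of 6 pathway lists by smallest p, and for each member the 2 genes most alike over the 8 group means. The members and lists were chosen with earlier results of these data known. Alternatives were a pseudocount of 1, quantile normalization, all probe sets unfiltered, their mean per gene, no intensity trend, array weights, a fit on the groups compared alone, the replicate number as a block, an Xist term and each array left out. Leaving out the 2 arrays highest in heat shock genes, and the 4 that deviated most from their groups (adult LPS+MV mouse 2, juvenile control 4, juvenile LPS+MV mouse 3 and juvenile MV mouse 3), was chosen after seeing the data. Promoter sequences are RefSeq's, GRCm38.p6.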

Additional observations from a re-analysis of the deposited data

Results flagged for a closer look

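In 60 sets of 4 values, each of 1 gene in 1 group of 4 mice, 4 values lay far from the other 3 by Dixon's test. Chance flags 1 in 20, or 3, but the sets share mice and are not independent. Gadd45a was 176 in juvenile control 4, against 161 to 163 in the others. Gadd45b was 310.2 in juvenile control 3, against 515 to 548. In adult control 1 Gadd45g was 108, against 148 to 155, and Ier2 was 766, against 622 to 639.

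The response to a treatment differed between ages, by the interaction in the fit over all genes, for 4 of the 10 genes. Over all genes the share called was 6.13% for MV, 3.69% for LPS and 2.10% for LPS+MV, in either direction. For MV this was Cdkn1a, 1.34 higher on the log2 scale in adults (adjusted p = 0.035). For LPS these were Gadd45g (1.32, adjusted p = 0.0087), Cdkn1a (1.31, adjusted p = 0.041), Myc (0.88, adjusted p = 0.0030) and Ier3 (-1.09, adjusted p = 0.022). For LPS+MV it was Ier3 (-1.16, adjusted p = 0.030). Both terms of Cdkn1a were lost when single arrays were left out (adjusted p up to 0.11 for MV and 0.090 for LPS), as was the LPS+MV term of Ier3 (up to 0.10). Xist was high on 1 of 4 juvenile controls and 0 of 4 adult controls, and on 1 of 3 juvenile and 4 of 4 adult MV mice. With Xist as a term the MV difference of Cdkn1a was 1.25 and did not pass (adjusted p = 0.14).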

How the results depend on the processing

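Of 180 results (10 genes in 18 comparisons), 88 were called. Of these, 60 were called in every alternative and 63 in every fit with 1 array left out. No called result turned direction. Calls lost and gained were 1 and 4 with quantile normalization, 1 and 1 with a pseudocount of 1, 10 and 0 without the filter, 1 and 1 with the mean over probe sets, 1 and 1 without the trend, 3 and 12 with array weights, 10 and 13 on the groups compared alone, 14 and 2 with the Xist term, 10 and 6 without the 2 arrays high in heat shock genes, and 5 and 14 without the 4 arrays that deviated most.

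Counts of the 10 genes that moved by over 1.5 times were these. For adult against juvenile control, 1 became 2 with array weights, 3 on the groups compared and 3 without the 4 arrays. For juvenile MV, 4 became 1 without the filter, 0 on the groups compared, 0 without the 2 arrays and 2 without the 4. For the juvenile interaction of LPS and MV, 0 became 1 with array weights, the mean over probe sets, no trend and quantile normalization. For the adult one, 2 became 5 with array weights, 0 without the filter, 4 on the groups compared, 1 with quantile normalization, 5 without the 4 arrays and 1 with the Xist term. For age by MV, 1 became 2 with array weights, 0 on the groups compared, 2 without the 2 arrays and 0 with the Xist term. For age by LPS+MV, 1 became 0 without the 2 and without the 4 arrays. Juvenile LPS+MV against LPS went from 5 to 3 and against MV from 8 to 5 without the 2 arrays. With the Xist term adult MV went from 4 to 1 and adult LPS+MV against LPS from 4 to 1. The fits on the groups compared and those leaving out arrays use fewer samples. Otherwise the cause was not tested.

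With 1 array left out, the counts ranged from 1 to 2 for the controls, 0 to 5 for juvenile MV, 2 to 4 for adult MV, 3 to 6 for juvenile LPS+MV against LPS, 5 to 8 for it against MV and 3 to 6 for juvenile LPS against MV. They ranged from 0 to 1 for the juvenile and 0 to 2 for the adult interaction of LPS and MV, from 0 to 2 for age by MV and from 0 to 1 for age by LPS+MV.

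The replicate number as a block left 1 of the 2 adult interaction calls, lost 5 calls of 88 and gained 1. Mice of the same number deviated from their groups with a median correlation of 0.03 (-0.23 to 0.42, 37 of 99 pairs over 0.1), and other mice with -0.01 (46 of 294 over 0.1). The labels do not say that the numbers pair the mice, and the main fit did not pair them. Pairs of the same number were over 0.1 more often than other pairs, and the cause was not tested.

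Over all genes, calls for juvenile MV went from 1421 to 2616 with array weights, 27 on the groups compared and 788 without the 2 arrays, and for adult MV from 4123 to 1712 with the Xist term. That term also took adult LPS against MV from 3202 to 1967, adult LPS+MV against LPS from 922 to 246, juvenile LPS+MV against LPS from 2019 to 1132 and age by MV from 803 to 189. Array weights gave 1776 and 3433 for adult and juvenile LPS+MV against LPS, 4724 for juvenile LPS+MV against MV (from 1925), 1604 for the adult interaction (from 937), 508 for the juvenile one (from 98), and 2075, 943 and 1723 for age by MV, LPS and LPS+MV (from 803, 483 and 275). On the groups compared, juvenile LPS+MV gave 2659 against control (from 4099), 1324 against LPS and 1045 against MV, the juvenile interaction 38, and age by MV and LPS+MV 410 and 71. Quantile normalization gave 157 for the juvenile interaction, the block 418 for age by LPS+MV, and leaving out the 4 arrays 1650, 1108 and 646 for age by MV, LPS and LPS+MV.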

Other observations

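For each gene, the tested genes whose group means followed it most closely over the 8 groups are given as a description, since groups share age and treatment. Maff was followed most closely by Nfe2l2 (r = 0.991), which encodes a partner of the small MAF proteins, and by the gap junction gene Gja1 (0.991). Myc was nearest to the lipid droplet gene Plin2 (0.993) and Gm6377 (0.992), and Ier3 to Cybb (0.995), the NADPH oxidase subunit of phagocytes, and Smad3 (0.980). Gadd45a was nearest to Patl1 (0.985) and the cytokine gene Osm (0.983), Gadd45b to Tank (0.983) and Eif1a (0.982), and Gadd45g to the glycolytic regulator Pfkfb3 (0.982) and Uap1 (0.981). Cdkn1a was nearest to Fut2 (0.963) and Tiparp (0.953). The group mean intensities of Fut2, 14.6 to 20.4, lay below the arrays' median intensities (21.6 to 22.8), as did part of those of Gm6377 (5.42 to 24.7). Btg2 was nearest to Nup153 (0.967) and Sbno1 (0.965), Mdm2 to Dcaf1 (0.972) and the actin gene Actb (0.968), and Ier2 to Sertad1 (0.985) and Pik3r5 (0.985). Within the set the highest values were 0.957 for Gadd45b and Maff, 0.946 for Gadd45g and Cdkn1a and 0.941 for Myc and Ier2.

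Other probe sets of the same genes made the same calls in 18 of 18 and 17 of 18 comparisons for Gadd45b, 16 of 18 for Cdkn1a and 16 of 18 for Btg2, and none made a call in the opposite direction.

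The heat shock genes, used as a sign of RNA or tissue state, had 0 of 10 called with juvenile LPS+MV (background 10.8% higher and 20.5% lower), where mouse 3 had a mean log2 value of 11.6 and the others 9.91 and 9.96. With adult LPS+MV 3 of 10 rose (background 14.8% higher), which were Dnajb1, Hspa1b and Hspa8, by 1.20 ± 0.41, 2.28 ± 0.79 and 0.48 ± 0.19 on the log2 scale. The difference between ages was called for 0 of 10 (background 2.10%).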
